A study of Brachypodium distachyon with 6 samples.

Results

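The transcripts described here were near silent in untreated roots of the grass Brachypodium distachyon and present in every root sample taken after treatment with 2,4-dichlorophenoxyacetic acid (2,4-D). They were chosen from the deposited counts themselves. Each had under 0.3 CPM (counts per 1000000 counted fragments of a library) in each of 3 untreated libraries and 0.5 CPM or more in each of 3 2,4-D libraries. Of 42868 annotated transcripts, 88 met this rule, and 18 met the reverse rule, near silent after 2,4-D and present in untreated roots.

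Both groups were roots of the reference line Bd21, from seedlings grown for 7 days on a Fahraeus medium low in nitrogen. The 2,4-D plants were then soaked whole for 1 h in 50 µM 2,4-D and returned to the same medium. Their roots were collected 7 days later, when they carried nodule-like structures, while the other group is labelled untreated root from the same stage, with no statement of a soak without hormone. Each group had 3 biological replicates with RNA isolated separately.

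2,4-D is a synthetic auxin that plants degrade slowly. Auxin binds a receptor that marks Aux/IAA repressor proteins for destruction, which frees auxin response factors to switch genes on, some of which are hardly transcribed without the hormone. In roots auxin governs the founding of lateral roots, and in grasses high doses of 2,4-D give rise to blunt outgrowths called nodule-like structures. A transcript that appears in such roots may come from a few cells of a new organ or from a low level in many cells. In whole roots, more cells of a type and more RNA per cell cannot be told apart.

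The identifiers in the counts carry no gene names, and none matched the reference gene table, so no product or function is given for any transcript. For the same reason the root label could not be checked against marker genes. Apart from the 2 leading transcripts of each direction, transcripts are named by their position on annotation version 2.1 of the genome.

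Libraries held 13036151 to 13812253 counts in 2,4-D roots and 12528548 to 14146109 counts in untreated roots. At these depths the rule meant at least 7 counts in each 2,4-D library, and at most 3, 4 and 4 counts in untreated replicates 1, 2 and 3. A floor of 3 counts corresponded to between 0.212 and 0.239 CPM. Within the 2,4-D group, the third library correlated less with the other 2 than those did with each other. Over tested transcripts, which are not independent replicates, the correlation of log2 CPM was 0.976 between 2,4-D replicates 1 and 2 (Pearson). It was 0.916 between 2,4-D replicates 3 and 1, and 0.905 between 2,4-D replicates 3 and 2. Untreated replicates were also loose, at 0.955 for 1 and 2, 0.920 for 1 and 3, and 0.940 for 2 and 3. With the untreated libraries, 2,4-D replicate 2 correlated at 0.925 to 0.928, above its value with 2,4-D replicate 3. No library repeated another, since the chi-square statistic of every pair within a group was 17.1 or more for each degree of freedom.

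Together the 88 transcripts held 154, 110.3 and 217 CPM in 2,4-D replicates 1, 2 and 3, against 9.74, 10.2 and 12.3 CPM in untreated replicates 1, 2 and 3. The 2,4-D sums were highest in replicate 3 and lowest in replicate 2. The rule caps each untreated value and sets only a lower limit on the 2,4-D values. That the untreated sums lay closer together therefore follows largely from the choice. The mean was 160.4 ± 53.8 CPM in 2,4-D roots and 10.7 ± 1.37 CPM in untreated roots (SD, n = 3 each). In counts this was 6406 in the 2,4-D libraries and 440 in the untreated ones, a ratio of 14.8 after scaling by library totals. The rule fixed the direction of this difference and much of its size, so no test was made of it.

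Silence in untreated roots was seldom complete. Only 1 of the 88 transcripts had 0 counts in all untreated libraries, 11 had 0 counts in 2 of them, 37 in 1 of them, and 39 had a count in each. Over the untreated group together the transcripts had 0 to 10 counts, with a median of 5. The 1 transcript without an untreated count, with 3 exons on chromosome 2 (38586397 to 38590112, minus strand), had 0.675, 1.52 and 2.07 CPM in 2,4-D replicates 1, 2 and 3. With a floor of 3 counts put in for the whole untreated group, it was 19.3-fold higher in 2,4-D roots. That value takes no account of counting error in the 2,4-D counts. The ratio of counts scaled by totals had an exact 95% lower limit of 15.2. This limit, and the intervals given below, cover counting error only.

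Most members stayed at low levels after 2,4-D as well. Their mean level in 2,4-D roots ran from 0.548 to 10.2 CPM with a median of 1.31 CPM. Of the 88, 5 averaged 5 CPM or more, 17 averaged 2 to under 5 CPM, 37 averaged 1 to under 2 CPM and 29 averaged under 1 CPM. Per length, the median member had 1.31 CPM per kb of exon in 2,4-D roots, against 9.72 CPM per kb for the 19529 transcripts present in all 3 2,4-D libraries. Among those transcripts the median member stood at the 11.9th percentile of CPM per kb, and 2 of the 88 were above the median. The 12 members of highest mean carried 36.7% of the counts of the group in 2,4-D roots.

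**Figure D1:**
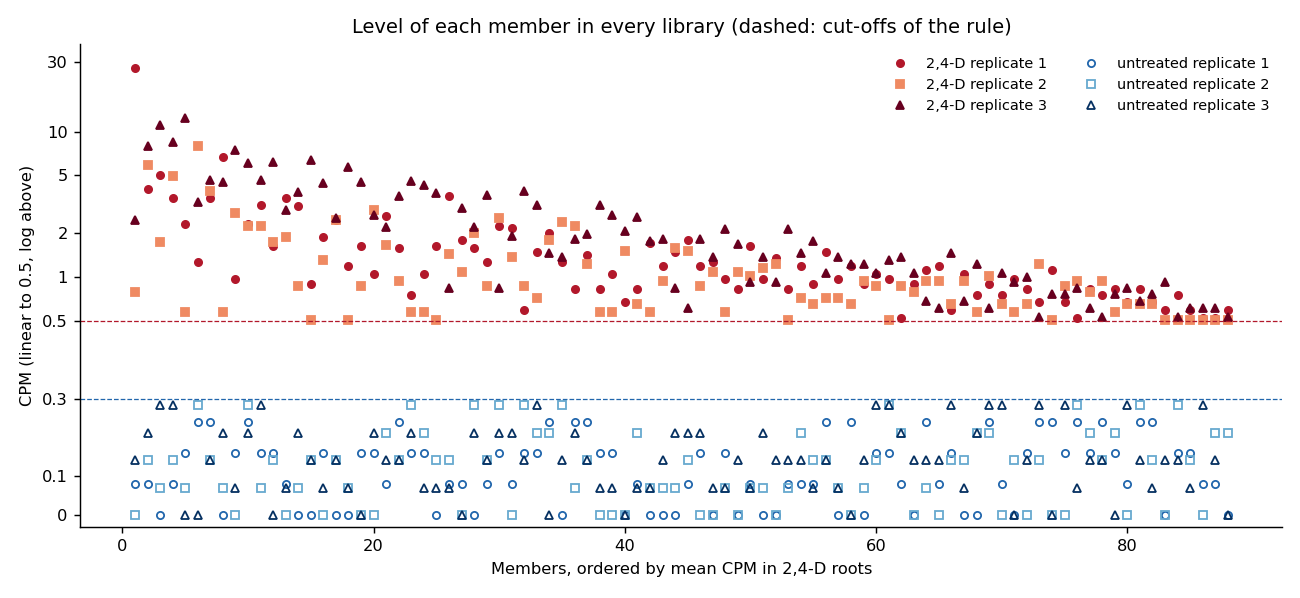
CPM of the 88 members in each 2,4-D library (filled) and each untreated library (open), ordered by mean CPM in 2,4-D roots, on an axis that is linear to 0.5 CPM and logarithmic above. Means in 2,4-D roots run from 0.548 to 10.2 CPM, the dashed lines at 0.5 and 0.3 CPM are the cut-offs that chose the members, and 2,4-D replicate 3 is the highest library for 56 of them.

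The member of highest mean, Bradi3g43855.1 (chromosome 3, 45588233 to 45589156, plus strand, 2 exons), owed its place to 1 library. It had 27.4, 0.796 and 2.45 CPM in 2,4-D replicates 1, 2 and 3, against 1, 0 and 2 counts in untreated replicates 1, 2 and 3. The level in 2,4-D replicate 1 was 34.4 times that in 2,4-D replicate 2, the widest spread of any member. It lies inside the span of a locus on the opposite strand without sharing exon bases with it, and that locus averaged 0.276 CPM in 2,4-D roots and 0.1004 CPM in untreated roots.

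The second, Bradi5g11230.1 (chromosome 5, 14880384 to 14882583, plus strand, 2 exons), was more even. It had 4.05, 5.86 and 7.98 CPM in 2,4-D replicates 1, 2 and 3, against 1, 2 and 3 counts in untreated replicates 1, 2 and 3. Its mean was 5.96 ± 1.97 CPM in 2,4-D roots and 0.144 ± 0.0662 CPM in untreated roots (SD, n = 3 each), and the ratio of counts scaled by totals was 40.5 (95% counting interval 18.3 to 111.3).

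The other 3 members that averaged 5 CPM or more divided in the same way. A 4-exon transcript on chromosome 1 (42113253 to 42117725, minus strand) had 3.52, 4.92 and 8.44 CPM in 2,4-D replicates 1, 2 and 3, against 1, 2 and 4 counts in the untreated ones. An intronless transcript on chromosome 3 (46570281 to 46570799, plus strand, 519 bp) had 5.02, 1.74 and 11.05 CPM, against 0, 1 and 4 counts in untreated replicates. Its replicates thus differed more than those of the 4-exon transcript. An intronless transcript on chromosome 1 (72837814 to 72839370, minus strand) had 2.32, 0.579 and 12.504 CPM in 2,4-D replicates, against 2, 1 and 0 counts in untreated ones, so that most of its signal came from 2,4-D replicate 3.

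Of the next 4 members in order of mean, 3 varied widely between the 2,4-D replicates. A 2-exon transcript on chromosome 2 (1707822 to 1709810, plus strand) had 1.27, 7.96 and 3.30 CPM in 2,4-D replicates 1, 2 and 3, against 3, 4 and 0 counts in the untreated ones. It was among the 11 members whose highest value was in 2,4-D replicate 2. A 2-exon transcript on chromosome 5 (12084707 to 12085446, plus strand) had 6.67, 0.579 and 4.53 CPM in 2,4-D replicates, against 0, 1 and 3 counts in untreated ones. Another 2-exon transcript on chromosome 2 (1314255 to 1315379, plus strand) had 0.975, 2.75 and 7.44 CPM, against 2, 0 and 1 counts. In all 3 the groups lay apart, as the rule requires, while the 2,4-D replicates differed several-fold among themselves.

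Of the 12 of highest mean, an intronless transcript on chromosome 3 (33858222 to 33859910, plus strand) was the most even. It had 3.52, 3.91 and 4.68 CPM in 2,4-D replicates 1, 2 and 3, against 3, 2 and 2 counts in the untreated ones, and its counts scaled by totals had a ratio of 23.5 (95% counting interval 11.2 to 59.4). The other 3 were highest in 2,4-D replicate 3. A 2-exon transcript on chromosome 3 (55463162 to 55465380) had 2.32, 2.24 and 6.14 CPM in 2,4-D replicates, against 3, 4 and 3 counts in untreated ones. A 3-exon transcript on chromosome 2 (13695826 to 13697702) had 3.15, 2.24 and 4.68 CPM, against 2, 1 and 4 counts. A 2-exon transcript on chromosome 2 (21998900 to 22001088) had 1.65, 1.74 and 6.21 CPM, against 2, 2 and 0 counts. In these 3 transcripts 2,4-D replicates 1 and 2 lay closer to each other than to replicate 3.

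The steadiest member of the 88 was a 2-exon transcript on chromosome 3 (40104153 to 40105579, minus strand), with 2.47, 2.46 and 2.53 CPM in 2,4-D replicates 1, 2 and 3 and 0, 2 and 2 counts in untreated replicates 1, 2 and 3. A 9-exon transcript on chromosome 3 (50972447 to 50975002) had 3.52, 1.88 and 2.91 CPM in 2,4-D replicates, against 1, 0 and 1 counts in untreated ones. It shares 326 bp of exon with a neighbour on the other strand, whose locus averaged 0.324 CPM in 2,4-D roots and 0.218 CPM in untreated roots. A 3-exon transcript on chromosome 5 (25926884 to 25929721) had 1.27, 1.09 and 1.38 CPM, against 0, 0 and 1 counts. These 3 had lower levels than the leading members, with replicates that spread less than 2-fold.

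Over all 88, the ratio of the highest to the lowest 2,4-D library had a median of 2.06 and a range of 1.03 to 34.4. It was under 2 for 42 members and over 5 for 14. The ratio of 2,4-D to untreated counts, scaled by totals, had a median of 12.4 over the 87 members with an untreated count and ran from 3.05 to 138.1. The member with the lowest ratio had a 95% counting interval of 1.32 to 7.85.

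At the edge of the rule, members and non-members differed by 1 count. The members with the lowest 2,4-D value had 7 counts (0.507 CPM) in 2,4-D replicate 2, and the transcripts just below the cut-off had 6 counts (0.460 CPM) in 2,4-D replicate 3. On the untreated side, members reached 4 counts (0.283 CPM) in replicate 3, and the nearest transcripts outside had 4 counts (0.319 CPM) in untreated replicate 1. A further 27 transcripts that were near silent in untreated roots had a lowest 2,4-D value from 0.4 to under 0.5 CPM, and 29 of the 88 members had a lowest value under 0.6 CPM. With 1 CPM in place of 0.5, 20 of the members were left.

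Members were set beside the transcripts of the reverse rule. The 88 members made up 0.45% of the 19567 transcripts near silent in each untreated library, and the 18 reverse ones 0.0942% of the 19117 near silent in each 2,4-D library. The ratio of 88 to 18 was 4.89, so members were 83.0% of both together. Scaling changed this split. With TMM-adjusted library sizes the numbers were 76 and 28, or 73.1%, and with DESeq2 size factors 66 and 28, or 70.2%. The 76 and the 66 were all among the 88, and all 18 reverse ones remained. The median log2 ratio of all tested transcripts was 0.10 with library totals, 0.02 with TMM and -0.0046 with DESeq2 size factors.

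The reverse list was shorter, but its leading transcripts had higher levels than the leading members. Bradi3g10520.1 (chromosome 3, 8706041 to 8707048, minus strand, 2 exons) had 0 counts in each 2,4-D library, against 206.1, 54.4 and 20.4 CPM in untreated replicates 1, 2 and 3. With a floor of 3 counts put in for the 2,4-D group, it was 1195-fold lower. The ratio of 2,4-D to untreated counts, scaled by totals, had an exact 95% upper limit of 0.00103. Bradi4g43620.2 (chromosome 4, 47385017 to 47389440, 15 exons) also had 0 counts in each 2,4-D library, against 120.7, 37.2 and 17.6 CPM in the untreated ones. The third, an intronless transcript on chromosome 1 (63969440 to 63970755) had 1, 0 and 0 counts in 2,4-D replicates, against 113.02, 29.1 and 13.1 CPM in untreated ones. All 3 were highest in untreated replicate 1 and lowest in untreated replicate 3. Below them the reverse list was low as well, with a median over its 18 transcripts of 1.44 CPM in untreated roots.

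Presence after 2,4-D was more often seen in 1 library than in all 3. Of the transcripts near silent in untreated roots, 461 reached 0.5 CPM in 2,4-D replicate 3, against 265 in replicate 1 and 252 in replicate 2. Those that reached it in 1 library only numbered 424, of which 263 were in 2,4-D replicate 3, 80 in replicate 1 and 81 in replicate 2. A further 145 reached it in 2 libraries, and the 88 members in all 3. For the reverse rule the numbers were 202 in 1 untreated library, 72 in 2 and 18 in all 3. The large class seen only in 2,4-D replicate 3 stands beside the lower correlation of that library with the other 2, whose part in these counts was not tested.

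**Figure D2:**
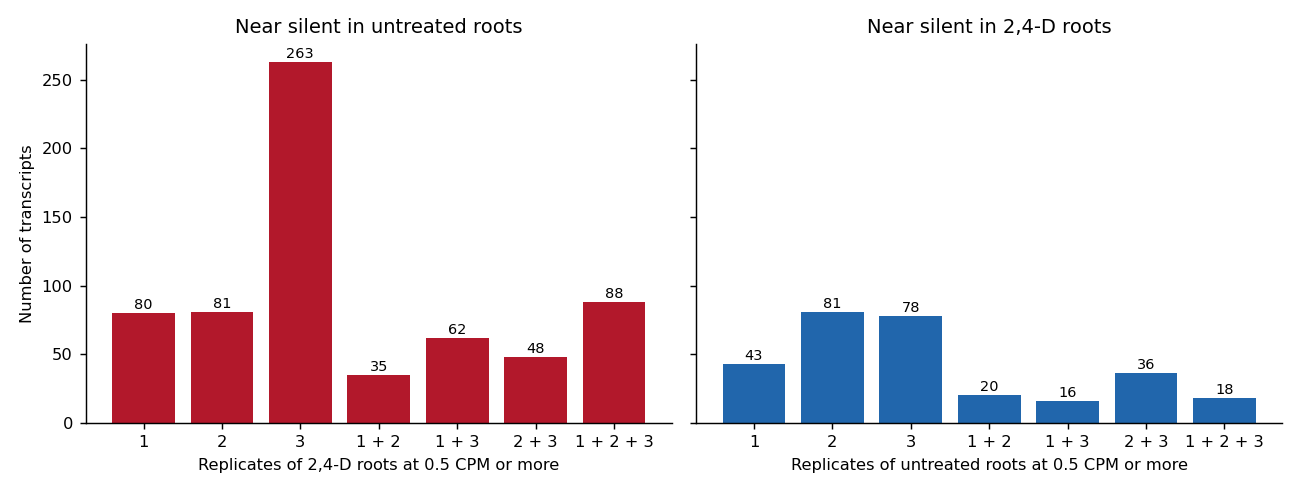
Number of transcripts near silent in all untreated libraries (left) or in all 2,4-D libraries (right), by the replicates of the other group in which they reached 0.5 CPM or more. The tallest bar is the 263 transcripts seen only in 2,4-D replicate 3, and the bars at the right of each panel are the 88 members and the 18 reverse ones.

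The same library led within the members. The highest 2,4-D value was in replicate 3 for 56 of 88 members (63.6%), in replicate 1 for 21 and in replicate 2 for 11. Among the other transcripts present in all 2,4-D libraries, replicate 3 was highest for 34.9%. Of the non-members called higher in the edgeR fit described below, 125, 36 and 120 were highest in 2,4-D replicates 1, 2 and 3. Replicate 2 was thus seldom the highest there too. The lowest value was in 2,4-D replicate 2 for 55 members. With TMM scaling 2,4-D replicate 3 was again highest for 56 members, and with DESeq2 size factors for 58. The 56 had a median ratio of 2.501 between their highest and lowest 2,4-D library, against 1.63 for the 21 led by replicate 1 and 1.89 for the 11 led by replicate 2.

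A library that took no part in the choice gives values the rule did not use. When 2,4-D replicate 3 was left out, 123 transcripts met the rule in the other 5 libraries, and 88 of them (71.5%) also had 0.5 CPM or more in replicate 3. Without 2,4-D replicate 1 the share was 64.7% of 136, and without 2,4-D replicate 2 it was 58.7% of 150. These shares set 88, which is the same in each by construction, against the number chosen without the library. Transcripts present in only 1 of the 2 remaining 2,4-D libraries met the cut-off in the library left out less often, with 40.6% of 271 in replicate 3, 22.0% of 441 in replicate 1 and 19.5% of 426 in replicate 2. Those present in neither did so in 1.37%, 0.421% and 0.427% of cases, in the same order.

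The untreated libraries were left out in the same way. Without untreated replicate 2, 113 transcripts met the rule in the other 5 libraries, and 77.9% of them were near silent in it. The share was 52.4% of 168 for untreated replicate 1 and 40.2% of 219 for untreated replicate 3. In untreated replicate 3 the 219 transcripts had a median of 0.495 CPM, with 12 at 0 counts and the highest at 7.50 CPM. Silence in 2 untreated libraries was thus more often broken in replicate 3 than in replicate 2. For the reverse rule the shares were between 33.3% (without untreated replicate 1) and 56.3% (without 2,4-D replicate 3), on 32 to 54 transcripts.

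**Figure D3:**
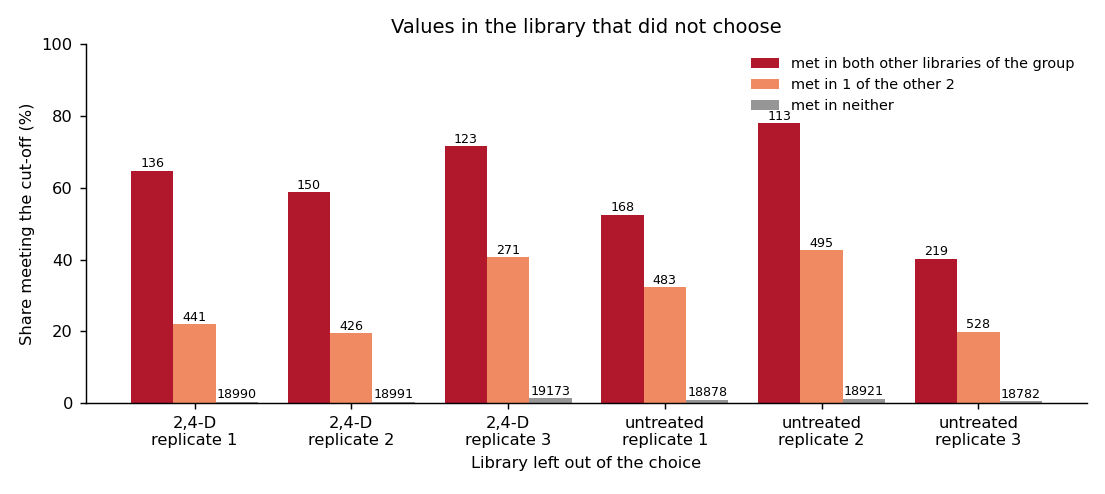
Share of transcripts that met the cut-off in a library left out of the choice (0.5 CPM or more in a 2,4-D library, under 0.3 CPM in an untreated library), by whether they met it in both, 1 or neither of the other 2 libraries of that group while meeting the cut-off of the other group, with the number of transcripts above each bar. Shares run from 40.2% to 77.9% for those that met it in both.

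An edgeR fit across the table (quasi-likelihood F test, a call being a Benjamini-Hochberg adjusted p under 0.05) could test only some of the members. Of the 88, 39 passed its filter on low counts, all through their 2,4-D values, and 49 did not. It called 15 of the 39 higher, where 1.48% of all 20061 tested transcripts were called higher, 0.703% lower and 2.18% in either direction. The contrast is the one that chose the members, so nothing is read from this count. The fit gave the 39 log2 fold changes of 2.22 to 6.85. The 15 had a median ratio of 1.87 between their highest and lowest 2,4-D library, against 2.74 for the 24 that were tested and not called. Since the test favours a small spread between replicates, this difference follows in part from the calling. The DESeq2 Wald test called all 39, where it called 6.62% of transcripts higher. With 1 library left out the filter passed 48 to 77 members, among 20559 to 20767 tested transcripts. Without untreated replicate 2 edgeR called 0 of 77 members and 0 transcripts in all. Without untreated replicates 1 and 3 it called 1 and 5 of 77 members, where it called 72 and 370 transcripts in either direction. Without 2,4-D replicates 1, 2 and 3 it called 1 of 48, 3 of 65 and 10 of 50 members. The transcripts called in either direction there numbered 19, 82 and 256.

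Several of the called members, for which the test favours evenness, were even at low levels. An intronless transcript on chromosome 2 (38863949 to 38865073) had 2.62, 1.67 and 2.22 CPM in 2,4-D replicates 1, 2 and 3, against 1, 3 and 2 counts in the untreated ones. A 3-exon transcript on chromosome 2 (18146266 to 18147620) had 1.65, 1.01 and 0.921 CPM, against 1 count in each untreated library. A 7-exon transcript on chromosome 3 (53671358 to 53673708) had 1.42, 1.23 and 1.99 CPM, against 3, 2 and 2 counts. None of these 3 had a 2,4-D value more than 1.79 times another of its own.

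The shortest called member had 207 bp of exon in 2 exons on chromosome 4 (17069165 to 17069519, plus strand). It had 3.60, 1.45 and 0.844 CPM in 2,4-D replicates 1, 2 and 3, against 1, 2 and 1 counts in the untreated ones, and at 9.49 CPM per kb only the intronless transcript of 519 bp and Bradi3g43855.1 had a higher 2,4-D level per length. An intronless transcript on chromosome 4 (45570879 to 45571406, 528 bp) had 1.80, 1.09 and 2.99 CPM, against 1, 0 and 0 counts. With 1 untreated count its ratio of 79.2 had a 95% counting interval of 13.8 to 3169.

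Gene structure was not used by the rule. Of the 88 members, 26 had 1 exon, 28 had 2 and 15 had 3, so that 69 (78.4%) had 1 to 3 exons, against 43.9% of all transcripts. As to the kind of locus, 82 members (93.2%) were the only annotated transcript at their locus, against 85.2% of the other transcripts present in all 2,4-D libraries and 59.8% of all transcripts. Of all transcripts, 19.4% have no exon base of their own. The counting command sets no option for overlaps, so fragments in exons that transcripts of a locus share may have gone uncounted. Comparisons of structure were therefore made among loci with 1 transcript.

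There, 1 to 3 exons were found in 82.9% of 82 members (95% exact interval 73.0 to 90.3), 52.2% of the other transcripts present in all 2,4-D libraries and 61.4% of all transcripts. Transcripts of like level came closer to the members. Among 2752 other transcripts whose mean over all 6 libraries lay between 0.432 and 1.90 CPM, the 10th and 90th percentile of the members, 77.9% had 1 to 3 exons. Intronless transcripts made up 31.7% of members (95% exact interval 21.9 to 42.9), 34.4% of those of like level and 22.5% of all. At the other end, 1 member (1.22%) had 10 or more exons, against 2.73% of those of like level and 14.0% of the others present after 2,4-D.

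**Figure D4:**
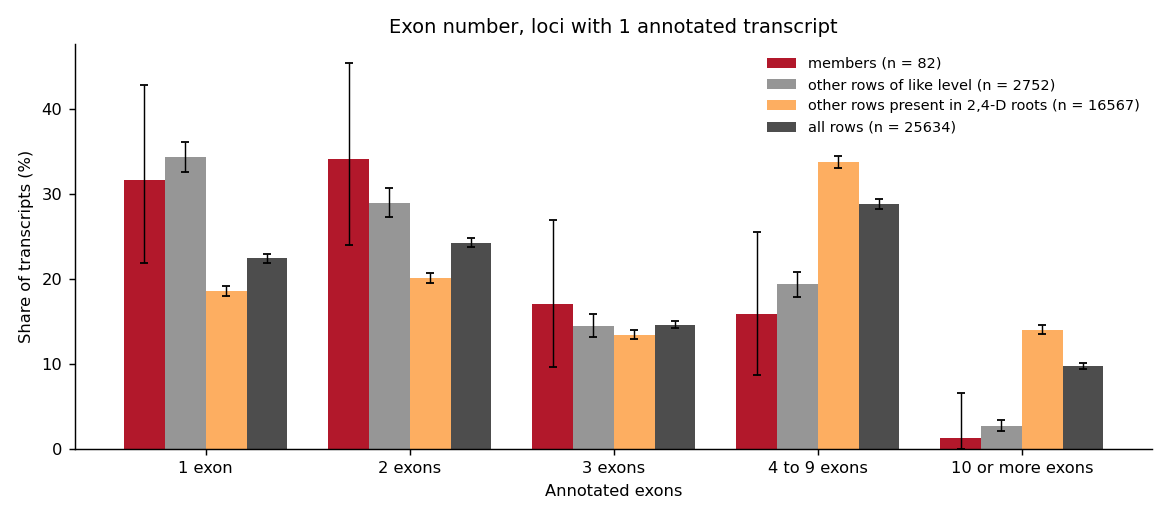
Share of transcripts by annotated exon number among loci with 1 annotated transcript, for the 82 members, other transcripts of like mean level, other transcripts present in all 2,4-D libraries and all transcripts, with 95% exact binomial intervals over transcripts. Members and transcripts of like level had 1 to 3 exons in 82.9% and 77.9% of cases, and both were above the 52.2% of the others present after 2,4-D.

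By exonic length, members lay between transcripts of like level and all transcripts. Among loci with 1 transcript the median was 1142 bp for members, 1066 bp for transcripts of like level, 1571 bp for the others present after 2,4-D and 1299 bp for all. Members ran from 207 to 4877 bp over all 88, and 11 of them had 600 bp or less. By exon class, the median level in 2,4-D roots was 1.397 CPM for 26 members with 1 exon, 1.34 CPM for 28 with 2, 1.19 CPM for 15 with 3 and 1.10 CPM for 19 with 4 or more. Per length the order was wider, with medians of 1.62, 1.54, 1.08 and 0.858 CPM per kb. The cut-offs act on counts, not on counts per length, and so admit long transcripts at lower levels per kb. Median exonic length in the same order was 881, 1239, 1089 and 1691 bp, and its part in the order per length was not tested.

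The members with 10 or more exons numbered 3. A 20-exon transcript on chromosome 1 (21159445 to 21171180) had 0.900, 0.507 and 6.37 CPM in 2,4-D replicates 1, 2 and 3, against 0, 2 and 2 counts in the untreated ones. It is 1 of 2 transcripts at its locus and has 698 bp of exon of its own. A 12-exon transcript on chromosome 1 (60245989 to 60253378) had 8, 7 and 12 counts in 2,4-D replicates 1, 2 and 3, against 0, 0 and 2 counts in the untreated ones. All of its exon bases are shared with other transcripts of its locus, so its counts may not separate it from them. The third, a 12-exon transcript on chromosome 3 (22840637 to 22845305), is the only transcript at its locus. Its counts were 14, 13 and 9 in 2,4-D replicates 1, 2 and 3, against 0, 2 and 1 in the untreated ones.

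Members were spread over all 5 chromosomes. They numbered 26, 17, 20, 12 and 13 on chromosomes 1 to 5, or 29.5%, 19.3%, 22.7%, 13.6% and 14.8%. All transcripts divided as 28.9%, 22.5%, 22.2%, 16.7% and 9.73%. On chromosome 5 the share of members was above that of all transcripts, and on chromosomes 2 and 4 below it. These shares rest on 13, 17 and 12 members, and whether they differ from those of all transcripts was not tested. On the plus strand lay 57 members (64.8%, 95% exact interval 53.9 to 74.7), against 49.04% of all transcripts and 56.05% of those of like level. The reverse list leaned the other way, with 27.8% of its 18 transcripts on the plus strand. Whether strand differs between the lists was not tested.

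No member lay next to another. The 88 members fell in 88 loci, the median distance between successive members on a chromosome was 1987590 bp, and the closest pair was 66375 bp apart on chromosome 3 with 9 loci between. A pair on chromosome 5 had 5 loci between. The chance of such spacing was not tested. The flanking gaps of members had a median of 3118 bp over 176 sides, against 2656 bp over 36 sides of reverse transcripts and 2334 bp over all loci. Of the members' sides, 20.5% were under 1000 bp, against 25.0% for reverse transcripts and 29.4% over all loci. Whether gaps differ between these sets was not tested. Orientation was ordinary, with 53.4% of neighbours on the same strand, 23.9% head to head and 22.7% tail to tail, against 52.2%, 23.9% and 23.9% over all loci.

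The neighbours were not chosen by the rule, and their levels can be read. Of the 176 flanking loci, 108 (61.4%) were expressed at a mean of 1 CPM or more in either group, against 61.6% of all loci. In 27 of the 108 (25.0%) the 2,4-D values lay above the untreated values with no overlap, against 17.5% of all expressed loci. In 6 of them (5.56%) they lay below with no overlap, against 9.9%. With TMM scaling, 23.1% of flanking loci lay above, against 14.3% of all, and with DESeq2 size factors 22.2%, against 13.8%. The median log2 ratio of mean CPM, with 0.5 CPM added, was 0.26 for the flanking loci and 0.11 for all. Whether loci beside members differ from other loci was not tested.

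Among the expressed flanking loci, edgeR called 5 higher (4.63%) and 0 lower, where it called 1.52% of all expressed loci higher and 0.712% lower. At an unadjusted p under 0.05 the whole fit held 3889 transcripts. The DESeq2 Wald test called 13 of the 108 higher (12.04%) and 2 lower (1.85%), where it called 6.72% of all expressed loci higher and 5.1% lower. The largest of the 5 in level, with 2 exons on chromosome 2 (1311341 to 1312639), lies 1615 bp before the 2-exon member at 1314255 on the same strand. It had 151.8 ± 7.66 CPM in 2,4-D roots and 20.2 ± 1.59 CPM in untreated roots (SD, n = 3 each), with a log2 fold change of 2.83 (SE 0.16) and an adjusted p of 0.00537 in edgeR. Its 2,4-D replicates lay close together, while those of the member beside it ran from 0.975 to 7.44 CPM.

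The other 4 flank members at gaps of 1728 to 10789 bp. An intronless locus on chromosome 4 (6228781 to 6230571), 8972 bp from a member, had 80.7 ± 18.4 CPM in 2,4-D roots and 18.03 ± 4.13 CPM in untreated roots (SD, n = 3 each; log2 fold change 2.07, SE 0.25, edgeR adjusted p = 0.0184). A 2-exon locus on chromosome 1 (46495018 to 46495808), 1728 bp from a member of 279 bp, had 14.3 ± 3.998 CPM and 1.67 ± 0.785 CPM (log2 fold change 3.02, SE 0.42, edgeR adjusted p = 0.0249). The remaining pair were intronless loci on chromosome 5, 3256 bp and 10789 bp from members, with log2 fold changes of 2.13 and 3.70 (edgeR adjusted p = 0.0266 and 0.0341). All 4 had higher levels in 2,4-D roots than the members they adjoin.

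Leaving out a library changed these calls. Of the 5, edgeR called 5 without untreated replicate 3 (adjusted p 0.0173 to 0.0485), 0 without untreated replicate 2 (adjusted p 0.0667 to 0.149), 1 without untreated replicate 1 (0.0334 to 0.0963), 1 without 2,4-D replicate 1 (0.0434 to 0.124), 1 without 2,4-D replicate 2 (0.0316 to 0.0725) and 2 without 2,4-D replicate 3 (0.0113 to 0.0659). The locus on chromosome 2 was the one called in each fit that called any of the 5. Of 20559 to 20767 tested transcripts, these fits called 276, 0, 49, 16, 72 and 194 higher, in the same order. Counting all flanking loci, edgeR called 2 higher without untreated replicate 1. Without untreated replicate 3 it called 5 higher and 1 lower. With the replicate number as a block 3 of the 5 were called, where 170 of 20061 transcripts were called higher. The log2 fold changes of the 5 ran from 1.91 to 4.54 over these fits.

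**Figure D5:**
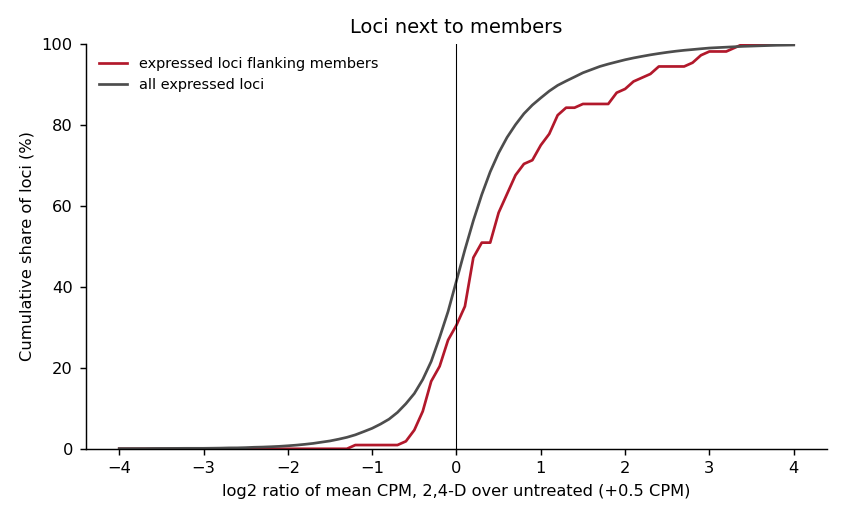
Cumulative share of loci by the log2 ratio of mean CPM, 2,4-D over untreated with 0.5 CPM added, for the 108 expressed loci that flank members and for all expressed loci. The curve of flanking loci lies to the right, with medians of 0.26 and 0.11.

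Few members overlap other loci, at a share close to that of all transcripts. The counting command sets no strand option, so reads of a transcript and of one on the other strand over the same exon bases cannot be told apart. Of the 88 members, 82 have spans with no base of a flanking locus, and 4 (4.55%) share exon bases with another locus. Such sharing was found in 5.51% of all transcripts and 5.48% of those of like level. Of the flanking sides, 3.41% overlapped the member, against 4.14% over all loci. In the 4, the shared exon is 7, 326, 343 and 632 bp long. The longest overlap, on chromosome 5 (25655601 to 25657011), is with a locus at 64.3 ± 5.698 CPM in 2,4-D roots and 77.9 ± 33.6 CPM in untreated roots (SD, n = 3 each). That locus had 114.5, 70.6 and 48.6 CPM in untreated replicates 1, 2 and 3, on both sides of its 2,4-D values. The member it overlaps had 17, 33 and 18 counts in 2,4-D replicates 1, 2 and 3, against 0, 4 and 2 counts in the untreated ones. The part of the overlap in these counts was not tested.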

How the data were processed

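Messenger RNA of 6 root samples was measured. The authors deposited raw fragment counts per transcript, made per the file headers with featureCounts 1.4.3 on annotation version 2.1, counting pairs of 50 to 1000 bp over exons, with no strand, overlap or multi-mapping option. Transcripts with near-identical copies may thus be undercounted. The submitters' processing notes also name Subread 1.4.3 and limma 3.28.7, without their roles. The library kit was stranded, per the labels' protocols. The gene lists planned by product could not be applied, for want of gene names. P-values measure the spread between 3 libraries a group. The exonic lengths are the authors' deposited values.

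CPM was each count over its library's total. Members were found by the stated rule, and members, lists and tests were chosen with earlier results of these data known. Named members were the 12 of highest mean in 2,4-D roots, those at 0 in all untreated libraries and those called by edgeR (12 of lowest p). The 3 leading reverse transcripts and those nearest the cut-offs were named too. The 20-exon member, the 12-exon member on chromosome 3, the 207 bp member and the overlaps were added after values were seen. Flanking loci are the next annotated loci by start. Analyses used Python 3.11.15, R 4.3.3 and edgeR 4.0.16 (TMM, default filter with minimum count 10, robust quasi-likelihood F test, Benjamini-Hochberg over 20061 transcripts, SE from fold change and F), with DESeq2 1.42.0 and limma 3.58.1 as alternatives. The fit was also run on data simulated from its own estimates of spread, and nothing is read from that run here. Intervals are 95% exact (Clopper-Pearson).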

Additional observations from a re-analysis of the deposited data

How the results depend on the processing

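The number of members (88) was 76 with TMM-adjusted sizes, 66 with DESeq2 size factors, 83 with counts summed per locus and 82 among loci with 1 transcript. It was 25 with near silence set under 0.15 CPM and 20 with presence set at 1 CPM, both stricter by construction. With 1 library left out, which loosens the rule, it ran from 113 to 219. The reverse number (18) was 28 with TMM, 28 with DESeq2 size factors, 9 under 0.15 CPM, 7 at 1 CPM and 32 to 54 with 1 library left out. Members outnumbered reverse ones under each of these settings. The share of members with 1 exon (29.5%) ran from 26.02% to 36.99%, and the share adjoining another member (0%) from 0% to 2.67%, with 1 library left out. edgeR called 437 transcripts and 15 members. The DESeq2 Wald test called 2328 and 39, and the cause was not tested. With 1 library left out edgeR called 0 to 370 transcripts, with 0 to 10 members. The 0 came without untreated replicate 2, where 2714 transcripts had an unadjusted p under 0.05. Libraries of the same number in both groups correlated at -0.0932, 0.350 and 0.0932 after their group means were removed, so the numbers were not taken as pairs. With a replicate block edgeR called 231 transcripts and 6 members. No member exceeded 4 counts in any untreated library, which limits the precision of its ratio.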
